A study of Homo sapiens with 346 samples.

Results

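Live HCT-116 cells were chosen by their FOS mRNA level alone: the 30 cells with the most FOS were compared with the 30 with the least, which makes 60 of the 91 live HCT-116 cells and of 334 cells in the tables analysed here, which the study kept after its filter on genes detected. HCT-116 is an adherent human colorectal carcinoma line. The study sequenced single cells of HCT-116 and of a second culture, labelled HepG2, by Smart-seq2, which copies full-length polyadenylated transcripts, and each line was prepared live or after fixation in 80% methanol and storage for 1 week. The cells described here are the live, unfixed HCT-116 cells: they grew in serum, were detached with trypsin, washed, stained with propidium iodide and sorted as single live cells into lysis buffer, with no agent given to any of them. The HCT-116 experiment was performed once, so all 91 cells come from 1 culture, and neither the plate of each cell nor the time from detachment to lysis was given in the sources used here.

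FOS and its partners of the JUN family form AP-1, a dimeric transcription factor. FOS is the textbook immediate early gene: serum factors, growth factor receptors or stress activate kinases of the MAPK family, these act on factors already bound at the promoter, and the mRNA appears quickly and is quickly degraded. EGR1, JUNB, IER2, ZFP36 and DUSP1 are induced by the same routes, and several of their products, DUSP1 and ZFP36 among them, shut the response down again.

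The promoters below are those of FOS and of 3 genes followed here, in bases upstream of the transcription start in GRCh38. Capitals mark a CArG box, the binding motif of serum response factor, the letters TGACG, which begin the cAMP response element TGACGTCA, that whole element where it occurs, the AP-1 site TGACTCA or its complement TGAGTCA, and the TATA box TATAAA, each on either strand. The FOS stretch was read from the genome from 330 to 31 bases upstream (chr14:75278498-75278797, plus strand), and the others are the 250 upstream bases of the RefSeq promoters of EGR1 (chr5:138465229-138465478, plus strand), DUSP1 (chr5:172771196-172771445, minus strand) and CLDN4 (chr7:73830746-73830995, plus strand). FOS and EGR1 are shown as the classic targets of serum response factor, DUSP1 as the feedback phosphatase, and CLDN4 as a junction gene that went with FOS.
FOS: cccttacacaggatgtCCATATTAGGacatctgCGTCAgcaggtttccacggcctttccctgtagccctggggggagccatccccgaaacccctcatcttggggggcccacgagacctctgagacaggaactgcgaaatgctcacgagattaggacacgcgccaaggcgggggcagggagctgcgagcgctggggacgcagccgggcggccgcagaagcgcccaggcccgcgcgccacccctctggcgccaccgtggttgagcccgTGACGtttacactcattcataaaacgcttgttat
EGR1: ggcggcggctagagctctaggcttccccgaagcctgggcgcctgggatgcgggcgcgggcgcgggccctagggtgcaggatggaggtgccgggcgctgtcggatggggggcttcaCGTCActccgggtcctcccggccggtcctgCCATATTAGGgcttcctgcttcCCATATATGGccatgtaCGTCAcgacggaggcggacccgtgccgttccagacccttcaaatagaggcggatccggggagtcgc
DUSP1: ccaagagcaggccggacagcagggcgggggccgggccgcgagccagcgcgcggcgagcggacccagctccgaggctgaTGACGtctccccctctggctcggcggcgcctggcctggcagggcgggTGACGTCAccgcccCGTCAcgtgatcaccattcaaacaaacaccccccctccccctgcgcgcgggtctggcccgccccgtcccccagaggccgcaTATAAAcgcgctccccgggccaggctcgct
CLDN4: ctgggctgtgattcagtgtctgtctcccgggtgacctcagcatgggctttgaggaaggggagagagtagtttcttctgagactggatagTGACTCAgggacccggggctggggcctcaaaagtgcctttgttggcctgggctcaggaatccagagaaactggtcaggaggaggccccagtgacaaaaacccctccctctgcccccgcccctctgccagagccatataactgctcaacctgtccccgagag
FOS held a CArG box at -314 to -305 and EGR1 held a pair of them, at -105 to -96 and -83 to -74. In 250 upstream bases this motif was held by 1.16% of all 35116 RefSeq promoters and by 1.36% of the genes tested. Shares of genes count each gene with a promoter once, with the motif in any of its promoters. They are therefore not on the same footing as shares of all promoters. The FOS box lies outside that 250-base window, so FOS is not among those counted. The printed FOS stretch stops before the end of its TATA box, which was found within its 250 upstream bases. DUSP1 held the complete cAMP response element at -125 to -118, an element found in 1.65% of all promoters and in 4.09% of the genes tested. The shorter TGACG, part of that element, occurred in 21.2% of all promoters. It was found in 38.9% of the genes tested and in 29.5% of the genes that were higher in FOS-high cells. CLDN4 held an AP-1 site at -161 to -155. That site was found in 4.20% of all promoters and in 3.33% of the genes tested. Of the 44 genes with a promoter that were higher in FOS-high cells, 2 held it, CLDN4 and EGFR. A match is a run of letters and does not show that a factor was bound.

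FOS was present in most cells and varied without a gap. In TPM, a transcript's share scaled to a fixed total in each cell, its level over the 91 cells ran from 0 to 391 with a median of 115.97, and 2 cells were listed at 0. The FOS-low cells held 0 to 83.6 TPM with a median of 46.9, the 31 cells between held 86.3 to 145.8, and the FOS-high cells held 146.1 to 391 with a median of 205. The groups are the ends of a continuous range of FOS: the last cell inside the FOS-high group had 146.1 TPM and the first outside it 145.8, and 15 cells lay within 10% of the upper limit and 8 within 10% of the lower. The FOS-low cells had a median of 172.5 reads on FOS and the FOS-high cells 718.5. In the 92 methanol-fixed HCT-116 cells FOS had a median of 1.95 TPM, 38 cells were listed at 0, and no cell reached the upper limit, so the same ranking was not made there.

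**Figure D1:**
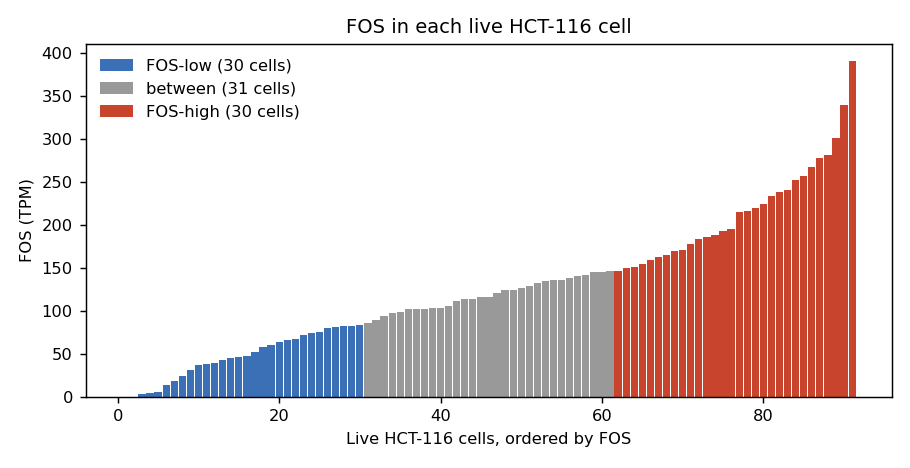
FOS in TPM (vertical axis) in each of the 91 live HCT-116 cells, ordered from the lowest to the highest (horizontal axis), with the 30 FOS-low cells in blue, the 31 between in grey and the 30 FOS-high cells in red. The bars climb steadily from 0 to 391 TPM with no step at either limit of the groups.

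Depth and RNA content had similar medians in both groups. Total reads per cell, estimated in units of M (mega), had a median of 2.25 M in FOS-low cells and 2.65 M in FOS-high cells, genes above 0 numbered 11804.5 and 12004.5, and ribosomal RNA took 24.5% of the TPM in both. The Spearman correlation of FOS with total reads over the 91 cells was 0.03, and with genes above 0 it was 0.05. Both groups expressed epithelial markers: EPCAM, KRT8, KRT18 and KRT19 were detected in every cell of the FOS-low and FOS-high groups. Of 15 listed epithelial and intestinal markers 10 were found in the table, and 4 of these did not reach a mean of 5 TPM. No hepatocyte, blood, fibroblast or endothelial marker of those listed reached that mean (summed medians of 3.72, 2.76 and 0.39 TPM in FOS-low cells and 4.26, 1.41 and 1.48 TPM in FOS-high cells).

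Few genes went with FOS from cell to cell, and for every gene tested the ranges of the groups overlapped. Differences below are the mean log2(TPM + 1) of the FOS-high cells minus that of the FOS-low cells, so that 1 is a 2-fold change, and a gene is said to have risen or fallen where it passed 2-fold. Of 7282 genes with a mean of at least 5 TPM, 65 rose (0.893%) and 38 fell (0.522%), and the median difference of all genes was 0.02. Because the 60 cells come from 1 culture, no p-value is given, and each difference is read against the spread between cells. Genes past 2-fold were more variable than most. The median SD between cells, pooled over both groups, was 1.79 for genes that rose, 2.43 for those that fell and 1.07 for all. A 2-fold limit takes variable genes more readily, and the gene lists below were not matched to other genes on spread. Only 6 genes were higher by at least 1 SD (0.0824% of all tested): HSCB, CASP6, TBL2, CLDN4, ISCA2 and CCDC24. Only PFDN2, CENPV and PSAT1 were lower by as much (0.0412%). The Spearman correlation with FOS over all 91 cells, which share 1 culture and differ in depth, ran from -0.44 for PFDN2 to 0.42 for TBL2, with 43 genes at 0.3 or above and 18 at -0.3 or below. In 52 of the 65 genes that rose and 31 of the 38 that fell, the 31 cells between had a mean between those of the groups. These genes were chosen for a wide gap between the groups, so a mean inside that gap was likely from the choice alone. The counts depend on where the groups end: with 20 cells at each end 2.53% of genes rose and 0.783% fell, and with the cells split at the median of FOS 14 genes rose and 15 fell.

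Among immediate early genes, several classic serum response genes rose with FOS but most of the program did not. Of the 86 listed genes found in the table, 50 passed the filter, 6 of them rose (JUNB, EGR1, BTG2, ID2, BHLHE40 and CLDN4), where 0.893% of all genes did, none fell, and 30 were above 0, where 52.9% of all genes were. The list was drawn up with earlier results of these data known, so these shares describe it and do not test it. The median difference of the 50 genes was 0.17. It was 0.02 when cell cycle scores and genes detected were regressed out and 0.04 as a ratio of mean TPM. With the cells split at the median of FOS, BHLHE40 alone of the 6 stayed past 2-fold.

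EGR1, a zinc finger factor whose promoter holds the CArG boxes shown above, had the strongest correlation with FOS among the 50 that passed the filter, at 0.38. FOS-low cells held 0 to 93.98 TPM of EGR1 with a median of 11.8, and FOS-high cells 2.16 to 102.7 TPM with a median of 23.2. The ranges overlapped almost fully, but the lowest values were missing from the FOS-high cells. The highest EGR1 value of all live cells, 386.5 TPM, lay in a cell between. EGR1 rose by 1.29, which was 0.86 SD between cells. It was above its median over all live cells in 20 of 30 FOS-high cells (66.7%, exact 95% interval 47.2 to 82.7). The same held in 12 of 30 FOS-low cells (40%, 22.7 to 59.4). In the cells between it held in 13 of 31 (41.9%, 24.5 to 60.9), a share close to that of FOS-low cells. These intervals cover counting error only. The difference was 0.78 with the cells split at the median and 0.85 as a ratio of mean TPM.

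Of the 5 AP-1 subunits and relatives that passed the filter, only JUNB rose. JUNB, a partner of FOS in AP-1, was at 0 to 174.1 TPM with a median of 52.2 in FOS-low cells and at 11.6 to 249 TPM with a median of 69.6 in FOS-high cells, a rise of 1.03. JUNB was detected in 28 of 30 FOS-low cells and in every FOS-high cell, and as a ratio of mean TPM the difference was 0.76. It was above its overall median in 14 of 30 FOS-low cells, 11 of 31 cells between and 20 of 30 FOS-high cells. JUN, the founding partner, was low in both groups, with medians of 4.38 and 5.77 TPM and a difference of 0.51. FOSL1, the FOS family member that carcinoma cells keep on, had medians of 64.4 TPM in FOS-low and 49.4 TPM in FOS-high cells and a difference of -0.18. ATF3, a stress-induced relative, had a difference of -0.57. FOSB, the closest relative of FOS, had a mean of 2.77 TPM and was left out by the filter. It is named after its values were seen, with a difference of 1.09 and a correlation of 0.50 with FOS.

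Among the other transcription regulators, 15 of 17 were above 0 with a median of 0.54. BHLHE40, a repressor of the basic helix-loop-helix class, rose by 1.37, from a median of 3.76 TPM in FOS-low cells to 11.5 TPM in FOS-high cells, and reached 725 TPM in 1 FOS-high cell. BTG2, an antiproliferative gene that p53 also induces, rose by 1.27 from a median of 3.56 to 11.2 TPM and was detected in 16 of 30 FOS-low and 25 of 30 FOS-high cells. ID2, which blocks the DNA binding of helix-loop-helix factors, rose by 1.26 from a median of 50.9 to 78.5 TPM, a value of 0.52 under the median split and 0.54 as a ratio of mean TPM, while its relatives ID3 and ID1 differed by 0.83 and 0.49. ZFP36, whose protein speeds the decay of AU-rich mRNAs, stopped just short of 2-fold: FOS-low cells held 0 to 200 TPM with a median of 53.9, FOS-high cells 5.25 to 287 TPM with a median of 91.5, and the difference was 0.96. The orphan nuclear receptors NR4A1 and NR4A2 differed by 0.96 and 0.80. IER2, expressed in every cell of both groups, differed by 0.42, and IER3, one of the most abundant of these mRNAs, by 0.05, with medians of 564 and 531 TPM. MYC, which serum also induces, had medians of 184.3 TPM in FOS-low and 158.02 TPM in FOS-high cells and a difference of -0.47.

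No feedback inhibitor of MAPK signalling rose or fell among the 13 that passed. DUSP1, the nuclear MAPK phosphatase, came nearest. It ran from 0 to 87.6 TPM with a median of 21.8 in FOS-low cells and from 0.332 to 235 TPM with a median of 48.6 in FOS-high cells, a difference of 0.84 with a correlation of 0.32. As a ratio of mean TPM it differed by 1.07, past 2-fold, and with the cells split at the median of FOS by 0.39. Of the FOS-low and FOS-high cells, the highest DUSP1 values belonged to the latter, but a cell between held 151.9 TPM. The FOS-high cell with the least DUSP1 had almost none. TRIB1, a pseudokinase, differed by 0.64, NFKBIA, the inhibitor of NF-kappaB, by 0.59, DUSP6, the ERK phosphatase, by 0.45, and GADD45A, a stress sensor, by -0.62. Upstream of FOS, EGFR, the receptor for epidermal growth factor, rose by 1.04, from a median of 3.87 to 10.3 TPM, a value that dropped to 0.44 with 20 cells at each end. The EGF ligands AREG and EREG differed by -0.08 and 0.13. None of the 11 measured genes of the RAS-ERK pathway and its ternary complex factors rose or fell, with a median of -0.03 and HRAS lowest at -0.73. None of 16 actin cytoskeleton targets of serum response factor did either, with a median of -0.10, nor did any of 14 AP-1 target genes of carcinoma cells, with a median of -0.06.

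**Figure D2:**
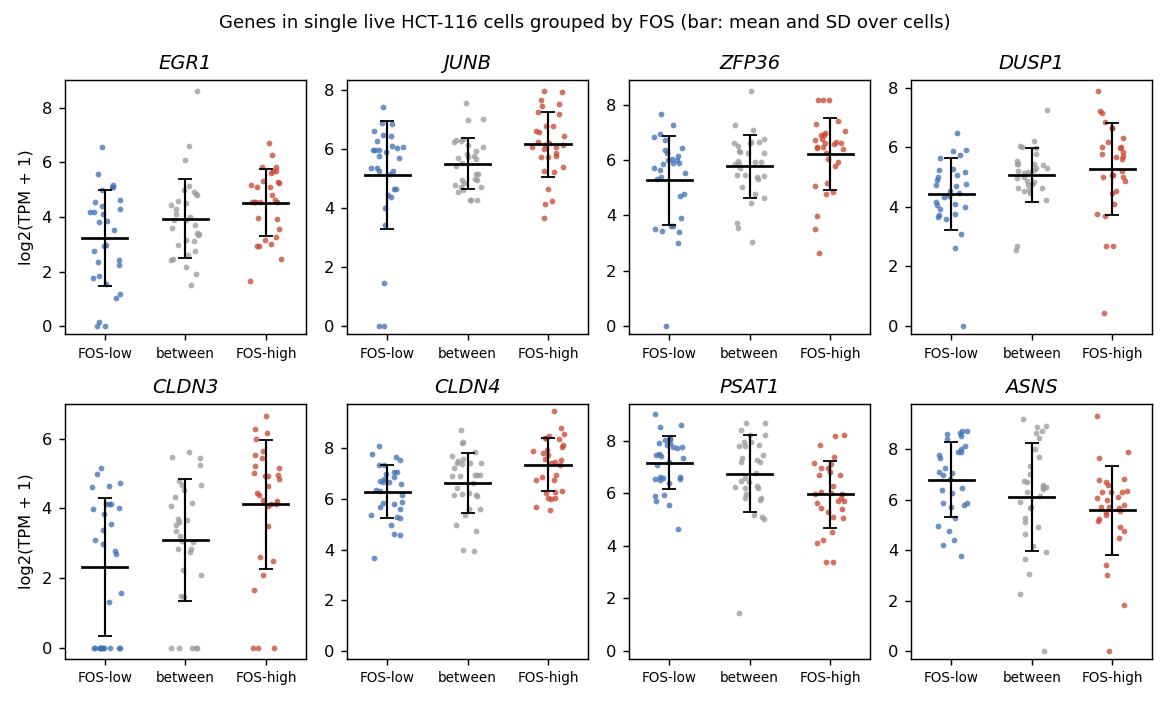
Level as log2(TPM + 1) (vertical axis) of 8 genes in the FOS-low (blue), between (grey) and FOS-high (red) live HCT-116 cells. Each point is 1 cell, the horizontal bar is the mean and the whiskers are the SD over cells. EGR1, JUNB, ZFP36, DUSP1, CLDN3 and CLDN4 have higher means in FOS-high cells and PSAT1 and ASNS lower ones, and the points of the groups overlap for each gene.

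Some epithelial junction and surface genes were among the largest rises, a grouping made after their values were seen and without a list. Of the 30 claudin and other tight junction rows in the table, a family also chosen afterwards, 10 passed the filter, 3 rose (CLDN3, CLDN4 and TJP3), none fell, and all 10 were above 0 with a median of 0.31. CLDN3 and CLDN4 encode claudins, the membrane proteins that seal tight junctions, and CLDN4 was also in the immediate early list. CLDN3 ran from 0 to 34.5 TPM with a median of 6.34 in FOS-low cells and from 0 to 99.7 TPM with a median of 22.6 in FOS-high cells. It rose by 1.79, the largest rise of any protein-coding gene tested, with a correlation of 0.37. CLDN4 ran from 11.9 to 267 TPM with a median of 87.1 in FOS-low cells and from 45.9 to 698.5 TPM with a median of 181 in FOS-high cells. It rose by 1.07, or 1.03 SD, with a correlation of 0.36. Its values above the FOS-low range lay in FOS-high cells and in some cells between, with up to 421.9 TPM in the latter. CLDN3 was above its overall median in 22 of 30 FOS-high and 11 of 30 FOS-low cells, and CLDN4 in 19 of 30 and 9 of 30. Among the cells between, CLDN3 was above it in 12 of 31 and CLDN4 in 17 of 31. TJP3, a scaffold protein under the tight junction, rose by 1.35, FXYD3, a regulator of the sodium pump, by 1.60, and TSPAN1, a tetraspanin, by 1.43. ESRP1, which directs epithelial splicing, differed by 0.97, or 0.99 SD, from a median of 13.4 TPM in FOS-low to 30.1 TPM in FOS-high cells. With the cells split at the median of FOS, CLDN3 differed by 1.06, CLDN4 by 0.77 and TJP3 by 0.66. When cell cycle scores and genes detected were regressed out, CLDN3 differed by 1.31. None of the 6 measured simple epithelial and intestinal markers reached 2-fold, with a median of 0.17: CDH1, which encodes E-cadherin, differed by 0.66, EPCAM by 0.19, KRT8 by 0.17, KRT19 by 0.17 and KRT18 by -0.02.

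Most of the genes with the largest shift relative to the spread between cells had no place in the immediate early lists. HSCB, a co-chaperone of mitochondrial iron-sulfur cluster assembly, ran from 0 to 52.9 TPM with a median of 5.38 in FOS-low cells and from 3.25 to 43.3 TPM with a median of 15.3 in FOS-high cells. It rose by 1.63, or 1.24 SD, and no FOS-high cell was at 0. Other genes of that assembly route did not all go the same way. ISCA2 differed by 0.76, or 1.02 SD, and NFU1 by 0.66, while BOLA3 differed by -0.60. CASP6, an executioner caspase, rose by 1.48 from a median of 6.67 to 17.1 TPM. TBL2, a WD-repeat protein, rose by 1.21 from a median of 13.3 to 26.2 TPM. PPP1R10, a regulatory subunit of protein phosphatase 1 in the nucleus, rose by 1.12 with a correlation of 0.39, and GSTZ1, an enzyme of tyrosine breakdown, rose by 1.34. At the other end, PFDN2, a subunit of the prefoldin chaperone for actin and tubulin, did not reach 2-fold but had the most negative correlation with FOS. It ran from 131.4 to 471 TPM with a median of 243 in FOS-low cells and from 53.8 to 354 TPM with a median of 157.2 in FOS-high cells, a difference of -0.71 or -1.23 SD. CENPV, a centromere protein, fell by 1.32, from a median of 17.1 to 7.18 TPM, and TEAD4, a DNA-binding partner of YAP, fell by 1.27, from 23.3 to 9.87 TPM. TNS4, a tensin of adhesion sites, fell by 1.33, from a median of 11.1 to 3.76 TPM. Of these genes past 2-fold, HSCB alone stayed past it under the median split, where CASP6 differed by 0.91, TBL2 by 0.84, PPP1R10 by 0.75, GSTZ1 by 0.68, TNS4 by -0.92, TEAD4 by -0.88 and CENPV by -0.63.

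In the list of unfolded protein and amino acid stress, 5 genes were lower past 2-fold in FOS-high cells and most others were not. ATF4 is the factor that amino acid shortage or unfolded protein brings on by translation, and ASNS, PSAT1, PHGDH, CHAC1 and DDIT3 are among its targets. Of 19 measured genes of this list, 5 fell (CHAC1, DDIT3, ASNS, PSAT1 and HERPUD1), where 0.522% of all genes did, and 1 rose. 14 were below 0, where 47.1% of all genes were, and the median was -0.40. This list too was drawn up with earlier results of these data known, so the shares do not test it. Several of its members went together from cell to cell, as given below, and are not separate results. PSAT1, an enzyme of serine synthesis, ran from 24.1 to 519 TPM with a median of 165.5 in FOS-low cells and from 9.43 to 296 TPM with a median of 61.9 in FOS-high cells. The fall of 1.19 was 1.04 SD between cells, and was 0.79 with 20 cells at each end. ASNS, asparagine synthetase, ran from 12.6 to 425 TPM with a median of 129.5 in FOS-low cells and from 0 to 639 TPM with a median of 53.3 in FOS-high cells, a fall of 1.22. The highest single ASNS value thus lay in a FOS-high cell, while 19 of 30 FOS-low cells and 10 of 30 FOS-high cells were above the overall median. CHAC1, which degrades glutathione, fell by 1.33 and was detected in 18 of 30 FOS-low and 12 of 30 FOS-high cells. DDIT3, the stress factor CHOP, fell by 1.22 from a median of 29.3 to 9.47 TPM. As a ratio of mean TPM that fall was 0.30. HERPUD1, of the endoplasmic reticulum degradation machinery, fell by 1.04. With the cells split at the median of FOS, CHAC1 alone of these 5 stayed past 2-fold, ASNS differed by -0.50, HERPUD1 by -0.47, DDIT3 by -0.78 and PSAT1 by -0.88.

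Several other members and near members of the amino acid group lay on the same side, most of them without reaching 2-fold. Of the 19 measured members of the list, 5 were above 0. PHGDH, the first enzyme of serine synthesis, differed by -0.84, SLC3A2, the heavy chain of amino acid transporters, by -0.67, ATF4 itself by -0.40, and EPRS, a tRNA synthetase outside the list, by -0.46 with a correlation of -0.33. PCK2, the mitochondrial form of an enzyme that makes phosphoenolpyruvate, was outside the list and is named after its values were seen, with a fall of 1.06. TRIB3, another ATF4 target, differed by -0.14, and the chaperone HSPA5 by -0.34. DDIT4, an inhibitor of mTORC1, went the other way and rose by 1.05, from a median of 49.2 to 122.5 TPM, but its difference was 0.28 with 20 cells at each end. Within the 91 cells these genes were tied to each other more closely than to FOS: the Spearman correlation was 0.82 between ASNS and PSAT1, 0.61 between PSAT1 and CHAC1, 0.51 between ASNS and CHAC1, and -0.29 between FOS and PSAT1.

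The immediate early genes were likewise linked among themselves more than to FOS in several pairs. The correlation over the 91 cells was 0.52 between EGR1 and IER2, 0.51 between JUNB and IER2, 0.48 between EGR1 and JUNB, and 0.44 between IER2 and ZFP36. FOS itself had 0.38 with EGR1, 0.32 with DUSP1, 0.30 with JUNB, 0.26 with ZFP36 and 0.16 with IER2. Other pairs went the other way: DUSP1 had 0.18 with EGR1, 0.19 with ZFP36 and 0.21 with JUNB, each below its value with FOS. CLDN3 and CLDN4 had 0.44 with each other. These coefficients share 1 culture and the same reads per cell, and describe these cells only.

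**Figure D3:**
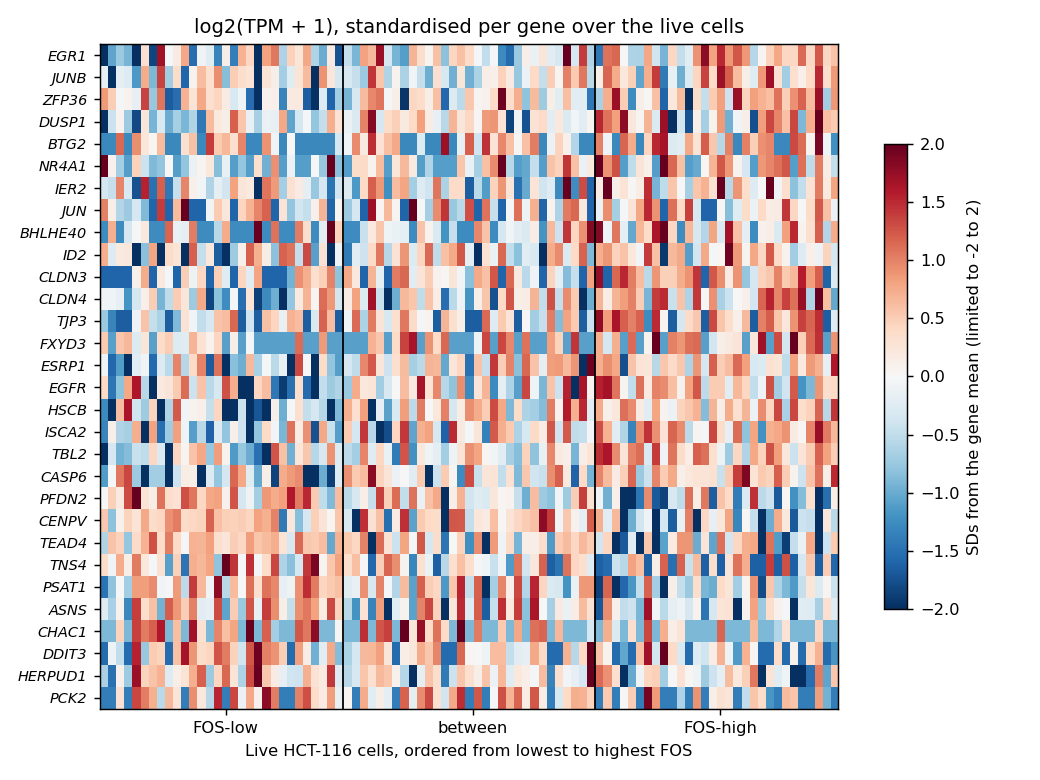
Standardised log2(TPM + 1), in SDs from each gene's mean over the 91 live HCT-116 cells (colour, limited to -2 to 2), for 30 genes named in the text (rows) in cells ordered from the lowest to the highest FOS (columns), with lines at the limits of the groups. The upper rows turn redder and the lower rows, from PFDN2 down, bluer toward high FOS, and each row stays mixed in every group.

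Among the remaining lists, smaller shifts were seen. Of 15 measured p53 targets 13 were above 0 with a median of 0.34, and TP53I3, a p53-induced oxidoreductase, rose by 1.10 beside BTG2, while CDKN1A, the p53-induced cell cycle inhibitor, differed by 0.43. TP53I3 differed by 0.72 under the median split. With 20 cells at each end the p53 median was 0.07 and 8 of 15 were above 0. Of 17 cholesterol synthesis genes 15 were above 0 with a median of 0.31 and none rose or fell. None of 17 heat shock genes (median -0.20), 23 genes of glycolysis and hypoxia (-0.01), 10 of early G1 and cell cycle entry (-0.27), 3 of the p38 and JNK pathway (-0.50), 4 YAP and TEAD targets (-0.11), 2 NF-kappaB and cytokine genes (0.34), 3 Wnt and stem cell genes (0.00) or 7 long noncoding RNAs (-0.05) passed 2-fold. The housekeeping groups were nearly level, with medians of -0.05 for 81 ribosomal protein genes, -0.05 for 76 respiratory chain genes and -0.07 for 36 proteasome genes.

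Cell cycle genes differed between the groups in a way that depended on where the groups ended. S phase genes were below 0 in 40 of 41 measured members with a median of -0.40, and DTL, a substrate receptor of a ubiquitin ligase active in S phase, fell by 1.05. G2/M genes were above 0 in 39 of 52 with a median of 0.21, and PSRC1 and CKAP2, both spindle proteins, rose by 1.53 and 1.03. With 20 cells at each end the S phase median was 0.0047 and the G2/M median 1.05. The correlation of FOS with the mean S phase score was -0.10 and with the G2/M score 0.16 over the 91 cells. FOS-high cells had G2/M scores from 1.16 to 6.40 with a median of 4.77, and FOS-low cells from 1.05 to 6.38 with a median of 3.78, so both groups held cells with low and with high scores. Under the median split DTL differed by -0.75 and CKAP2 by 0.71. When both scores and the genes detected were regressed out, 30 genes rose and 40 fell. EGR1 then differed by 1.24, JUNB by 0.94, CLDN4 by 0.92 and PSAT1 by -1.11.

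**Figure D4:**
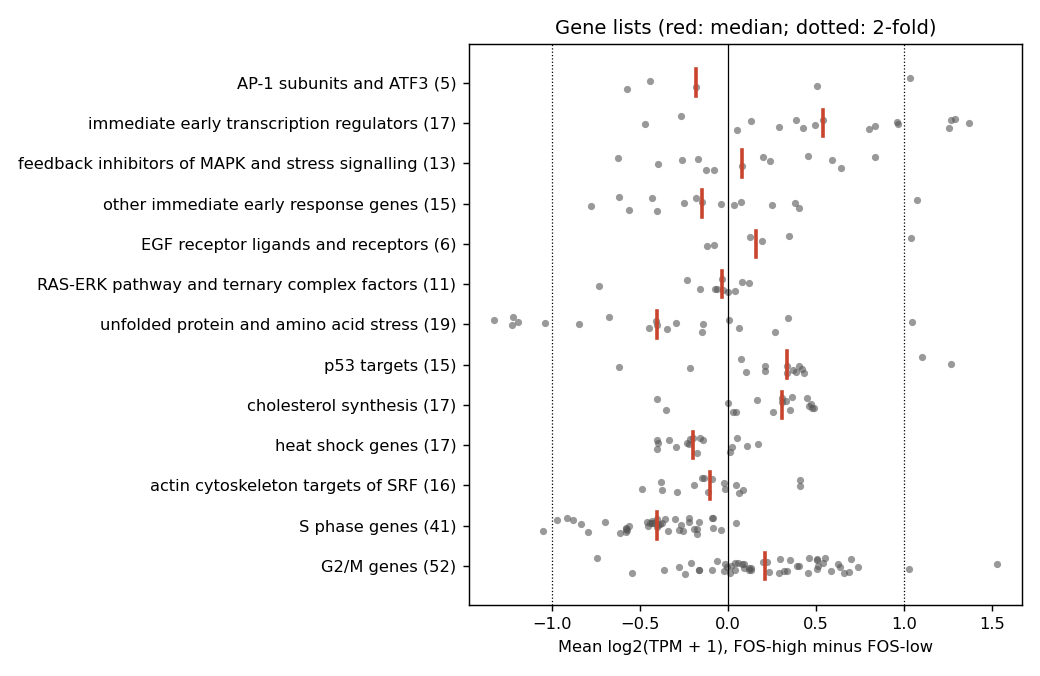
Difference in mean log2(TPM + 1) between FOS-high and FOS-low live HCT-116 cells (horizontal axis) for each measured gene (points) of 13 gene lists (rows, with the number of genes measured), with the list median in red and dotted lines at 2-fold. Immediate early transcription regulators have a median of 0.54 and reach 1.37, the amino acid and unfolded protein list a median of -0.40 and reaches -1.33, and S phase genes lie almost wholly below 0.

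Rows of small RNAs made up much of the calls, above all of the falls. Small nucleolar RNAs, microRNA hairpins, U6 and similar rows were 252 of the 7282 tested (3.46%), 11 of the 65 that rose and 25 of the 38 that fell. MIR21 had the largest rise of all, 2.15: it was above 0 in 7 of 30 FOS-low and 16 of 30 FOS-high cells, with medians of 0 and 28.6 TPM. SNORA3A rose by 1.97, and SNORD22 had the largest fall, 1.77, but as a ratio of mean TPM they differed by 0.83 and -0.63. Such RNAs lie inside longer transcripts or have many copies, and Smart-seq2 primes on poly(A) tails, so reads of the small RNA and of its host cannot be told apart here. Rows of near-identical copies, such as RNU6-7 and RNU6-8, held equal values. Without these rows 54 genes rose and 13 fell, 0.768% and 0.185% of those tested.

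The same ranking in the 68 live HepG2-labelled cells gave higher correlations between FOS and several immediate early genes. These cells carried more FOS, with medians of 125.7 TPM in their 30 FOS-low and 930 TPM in their 30 FOS-high cells, so the groups differ in level and range from those of HCT-116. Hepatocyte markers did not reach 5 TPM in them, so the label is used only as a name. The study prepared that line in 2 replicates, to which its columns were not tied here, and 1 live column held the same values as a fixed one. Of 7415 genes 1.69% rose and 2.52% fell (1.46% and 2.81% without that column), and of 40 measured immediate early genes 14 rose, with a median of 0.63. The correlation with FOS was 0.80 for EGR1, 0.77 for JUN, 0.72 for DUSP1, 0.69 for IER2, 0.59 for JUNB and 0.53 for ZFP36, each above its value in HCT-116, where JUN had 0.14. MYC and ATF3 had 0.44 and 0.40 in HepG2-labelled cells and -0.14 each in HCT-116. Other immediate early genes had lower values in HepG2-labelled cells than in HCT-116. BTG2 had 0.13 against 0.20, NR4A1 0.19 against 0.28 and ID1 -0.06 against 0.16. ID2 had -0.12 against 0.16 and IER3 -0.15 against 0.00. The junction genes did not go with FOS there: CLDN3 and CLDN4, at a mean of 280 and 348 TPM, had correlations of -0.09 and -0.19. DDIT3 had 0.48 in HepG2-labelled cells and -0.22 in HCT-116, and PSAT1 was almost absent from HepG2-labelled cells. The G2/M genes fell with FOS in 42 of 54 measured members there, with a median of -1.74, where HCT-116 had 0.21.

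The genes called in HCT-116 were then looked up in HepG2-labelled cells. Of the 65 genes that rose in HCT-116, 51 were measured in HepG2-labelled cells, 31 of those were above 0, where 48.5% of all genes were, and 8 rose, where 1.69% of all genes did. Of the 38 that fell, 25 were measured, 15 were below 0 and 2 fell, where 2.52% of all genes did. Over the 6121 genes measured in both lines the differences had a Spearman correlation of 0.10 across genes, which are not independent replicates. HCT-116 was 1 culture, and the replicates of the HepG2-labelled line were pooled here. A difference between the lines was therefore not tested, and line, culture, replicate and library preparation cannot be told apart.

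**Figure D5:**
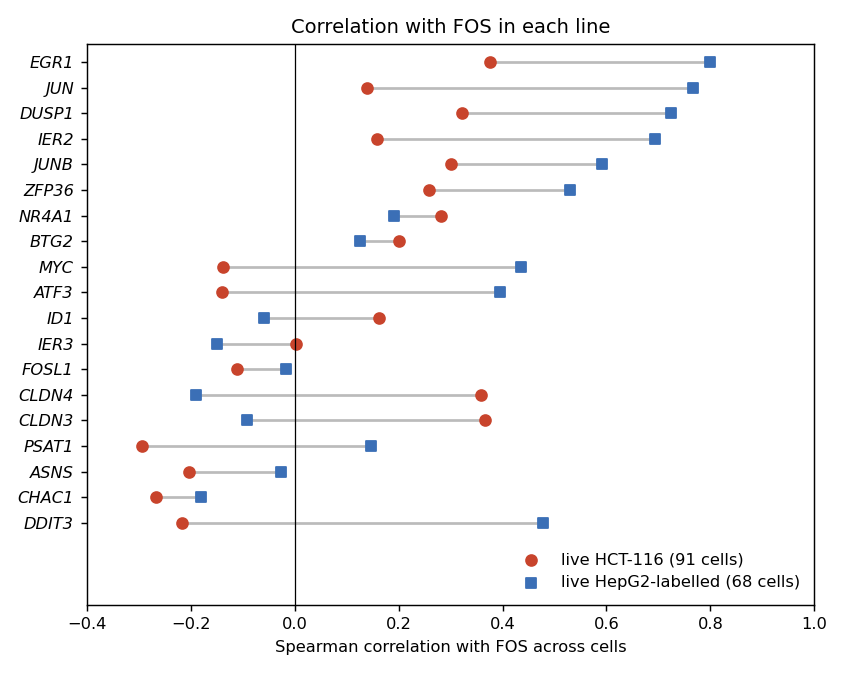
Spearman correlation with FOS across cells (horizontal axis) of 19 genes (rows) in 91 live HCT-116 cells (red circles) and 68 live HepG2-labelled cells (blue squares). EGR1, JUN, DUSP1, IER2, JUNB and ZFP36 lie further right in HepG2-labelled cells. NR4A1, BTG2, ID1, IER3, CLDN3 and CLDN4 lie further right in HCT-116 cells.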

How the data were processed

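Single cells of each line were sorted as singlets on forward scatter and read by Smart-seq2, and no doublet caller was run. The authors quantified reads with kallisto 0.46.0 on GRCh38, summarised transcripts to genes with tximport, kept cells with more than 4000 genes and deposited TPM per gene. The deposited HCT-116 transcript table is named TPM, but many of its low values step in even amounts within a cell, as CPM would, and were taken as CPM only to estimate each cell's total reads, to 0.1 M. The values are not counts, so no count test was run. TPM is relative, so a gene can differ because others do. Cells in a column were matched to line and treatment, not to single labels.

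Cells were ranked by FOS TPM, 30 from each end were taken, and genes with a mean of at least 5 TPM were compared on log2(TPM + 1), a scale that understates the change of low genes. FOS was left out. Since cells of 1 culture are not replicates, no p-value was computed. Genes were called at 2-fold, and a difference in SD uses the pooled SD over cells of both groups. Intervals of shares are exact Clopper-Pearson 95% intervals. Correlations are Spearman's. S and G2/M scores are mean log2(TPM + 1) over the list. The comparison was run on simulated, normally distributed log2 values with known shifts larger than 2-fold. Those values lack the zeros of these data, so the run checks the computation and not the genes called. The genes named are list members past 2-fold, immediate early list members, the leading members of other lists, the 20 largest rises, the 15 largest falls, and the 15 highest and 10 lowest correlations with FOS. The members and lists were chosen with earlier results of these data known. Alternatives covered the pseudocount, filter, group size, scaling, ribosomal RNA, depth pairing and cell cycle. Python 3.11.15, numpy 2.4.6, pandas 2.3.3, scipy 1.17.1 and matplotlib 3.10.9 were used.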

Additional observations from a re-analysis of the deposited data

How the results depend on the processing

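No paired analysis was possible because the columns carry no replicate number that matches a label and no test was run. The pairing on total reads below matches single cells on depth, not replicates. Main counts were 65 genes higher and 38 lower. As shares of the genes tested these are 0.893% and 0.522%. With a pseudocount of 0.1 the shares were 4.49% and 2.21%. With 20 cells at each end 2.53% were higher, and in HepG2-labelled cells 2.89% were, where groups of 30 gave 1.69%. With the median split, which takes less extreme cells, 0.192% were higher and 0.206% lower. With cell cycle scores and genes detected regressed out 0.412% were higher. Without small RNA rows, an alternative chosen after seeing the data, 0.185% were lower. With 20 cells at each end the S phase median turned from -0.40 to 0.0047 and the G2/M median moved from 0.21 to 1.05. Genes detected per cell differed by 200 between group medians, and by -114 under the median split. Except where the construction shows it, the cause was not tested. With a mean of at least 1 TPM and with no filter, 91 genes were higher and 40 lower, which over the larger number of genes tested is 0.771% and 0.339%, and 0.332% and 0.146%. Both rescalings, pairing 28 cells of each group on total reads, and the ratio of mean TPM left both counts within 1.5 times. Regressing out the cell cycle gave no value for the cell cycle lists, since these genes make the scores. Of 51 named genes past 2-fold, 18 stayed past it under the median split, 26 as a ratio of mean TPM, 38 after the regression, 43 with 20 cells at each end, 47 paired on reads, and all 51 under the pseudocount, median-ratio scaling and ribosomal RNA alternatives. None of them reversed under these 8 alternatives. Depth limits genes near 5 TPM, where zeros drive the difference, and 1 culture limits every comparison.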
